A study of Mus musculus with 12 samples.

Results

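The genes described here carry array names of 7 solute carrier families that hold amino acid transporters: Slc1a, Slc3a, Slc6a, Slc7a, Slc36a, Slc38a and Slc43a. They were found by name: 96 of 41174 non-control probes matched, for 56 of the 27962 names in the array's gene column. Their transcripts were read in 12 blastomeres, both cells of 6 mouse embryos that were split at the 2-cell stage about 36 h post coitus. All embryos came from CF-1 females bred naturally and carried no treatment or genetic change. Experiment 2 comprised pairs D, G and H, and experiment 1 comprised pairs D, I and L, with 3 embryos and 6 cells in either experiment. The cells of an embryo are numbered 2 and 1, without a statement in the labels of what the number means; D2 below is cell 2 of pair D. Embryos were flushed from oviducts, each blastomere was squeezed through a slit in the zona, and its polyadenylated RNA was amplified over a second round before labelling. An array therefore reports amplified RNA of 1 cell, and the twins of an embryo are the only replicates of that embryo.

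Amino acid carriers are grouped into transport systems by the substrates and ions they use. Systems L, y+L, asc, xc- and b0,+ are pairs of an Slc7 light chain with an Slc3 heavy chain, which brings the light chain to the cell surface. The Slc1, Slc6, Slc36 and Slc38 carriers work alone and draw on sodium or proton gradients. In the cleaving mouse embryo, carriers of glycine, proline, betaine and taurine are also known to load the cell with organic osmolytes that set its volume. The classes below follow the classical systems, and which gene serves an osmolyte in these cells was not tested.

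The names were checked before use. The accessions of 78 of the 96 probes were found in a gene table of assembly GRCm38.p6. Slc7a6os matches the family by its letters alone: it is a gene on the strand opposite Slc7a6 and no carrier. Slc43a3 is known as a nucleobase carrier and not an amino acid carrier. The probe named Slc6a20 has the accession of Slc6a20b. The remaining 54 names were placed in 22 transport classes, with the heavy chains, the creatine carrier and the monoamine carriers as classes of their own.

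The following facts of the whole series bear on every value below. Experiment 2 was scanned in Cy3 and experiment 1 in Cy5, although the labels name Cy3 for all samples, and no slide held cells of both, so experiment, dye and slide cannot be told apart. Of 14 oocyte and 2-cell transcripts on the array, markers of the labelled cell type, 11 were detected in all 12 cells. Transcripts of other cell types differed between the experiments. The summed signal of 11 stroma and smooth muscle genes was 0.631 to 1.11 times the array's 75th percentile in experiment 2 and 4.60 to 41.7 times in experiment 1. That of 10 oviduct epithelium genes was 0.577 to 1.98 in experiment 2 and 7.35 to 55.0 in experiment 1. That of 8 macrophage and leukocyte genes was 0.459 to 0.631 in experiment 2 and 4.64 to 229 in experiment 1. That of 13 cumulus and granulosa genes ran the other way, at 1.64 to 4.04 in experiment 2 and 1.01 to 2.07 in experiment 1. In that list 1 of 6 tested genes, Amhr2, was higher in experiment 2 (by 1.75 log2 units, limma adjusted p 0.0362). Such sums are set mainly by their brightest genes. Lyz2 alone of 5 tested macrophage and leukocyte genes passed between experiments. For the stroma list 7 of 8 tested genes passed, and for the oviduct list 4 of 8. Epcam, Pax8 and Cdh1 of the oviduct list had a higher mean in experiment 2 and did not pass.

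The first question was which carrier transcripts were found in these blastomeres. A probe was counted as detected where the scanner software called its spot well above background. At least 1 probe of 8 gene names was detected on all 12 arrays: Slc6a9, Slc6a7, Slc6a6, Slc1a1, Slc1a5, Slc3a2, Slc43a3 and Slc7a6os. The first 6 are carriers or carrier subunits, of glycine transport, proline transport (PROT), taurine transport (system beta), acidic amino acid transport (X-AG), system ASC and the shared heavy chain. The arrays measured their amplified transcripts, not transport. A further 42 names were detected on 1 to 11 arrays and 6 on none. Of the 22 transport classes, 6 had a gene detected in all 12 cells, 8 had one in 8 to 11 cells, 5 in 5 to 7 cells and 1 in a single cell. In 2 classes, b0,+ (Slc7a9) and B0,+ (Slc6a14), nothing was detected.

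**Figure D1:**
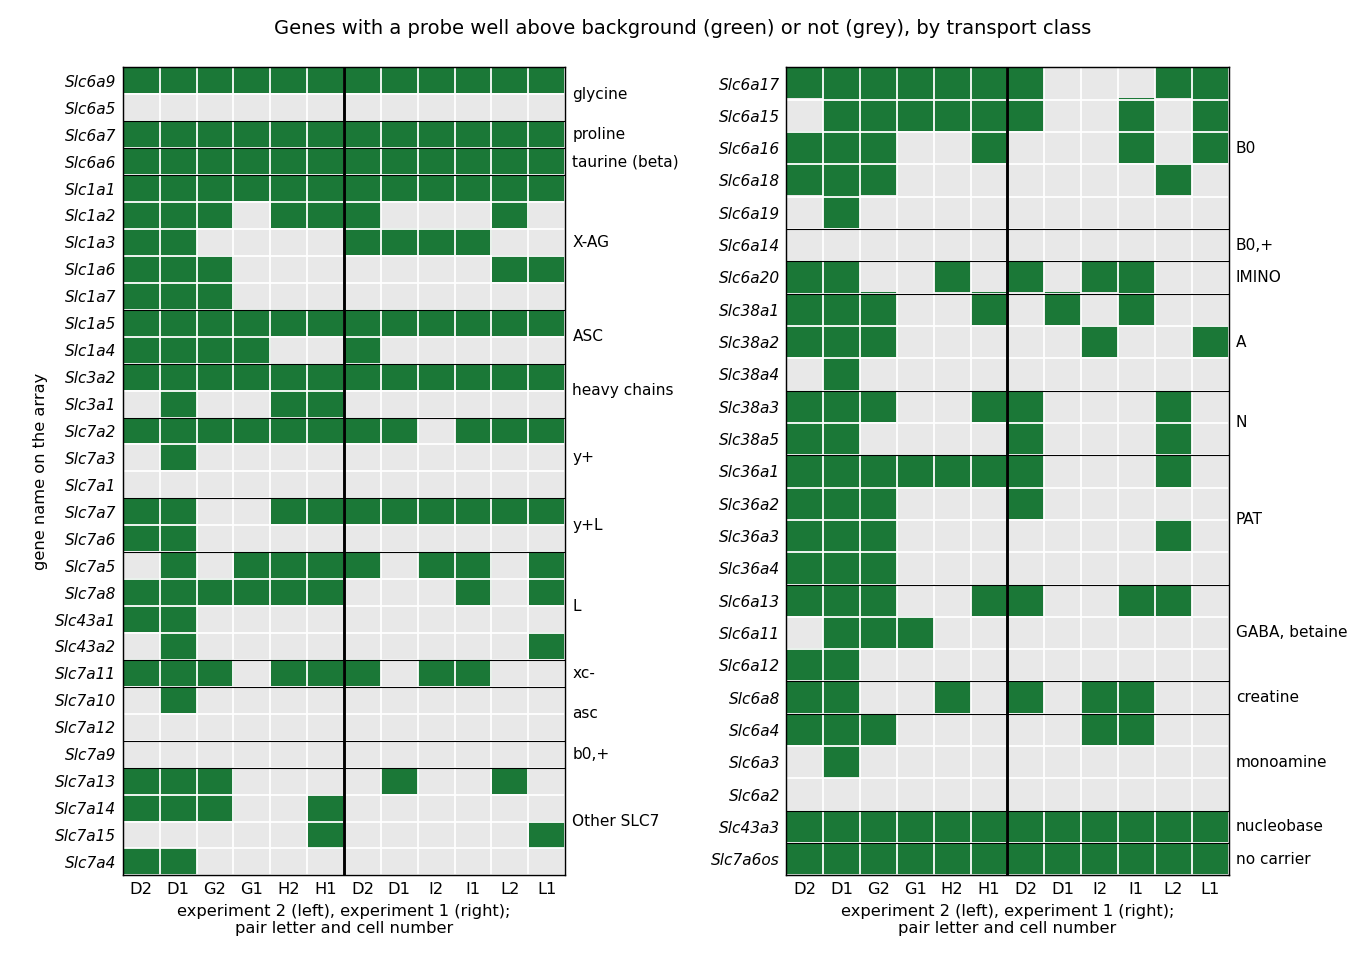
Detection of 55 of the 56 gene names (rows, grouped by transport class) on the 12 arrays (columns; experiment 2 left and experiment 1 right of the black line, labelled by pair letter and cell number). Green marks a gene with at least 1 probe well above background; 8 rows are green throughout, 6 are grey throughout, and many are green only in the columns of pair D of experiment 2.

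How many carriers were detected varied between arrays. Of the 56 names, the detected number was 38 and 49 in cells D2 and D1, 31 and 16 in G2 and G1, and 20 and 24 in H2 and H1 of experiment 2. It was 24 and 13 in cells D2 and D1, 16 and 21 in I2 and I1, and 20 and 19 in L2 and L1 of experiment 1. The 3 arrays with the most detected carriers, D1, D2 and G2 of experiment 2, were also those with the most detected probes of any kind. Within experiment 1 the order differed. Cell L2 had 41.5% of all probes detected and 20 names, and cell D2 had 38.6% and 24 names. On each of the 12 arrays the share of family probes detected, 18.8 to 76.0% in experiment 2 and 14.6 to 29.2% in experiment 1, was below the share of all probes, 30.9 to 78.7% and 21.9 to 41.5%. Over all arrays, 9.38% of the family probes were detected 12 times, against 14.2% of all probes. For Slc6a3, Slc6a12, Slc6a19, Slc7a3, Slc7a4, Slc7a6, Slc7a10, Slc38a4 and Slc43a1 the 2 arrays of pair D of experiment 2 were the only ones with a detected probe. Leaving out both cells of that pair kept the number of names found on every array at 8, a number that fewer arrays can only keep or raise.

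**Figure D2:**
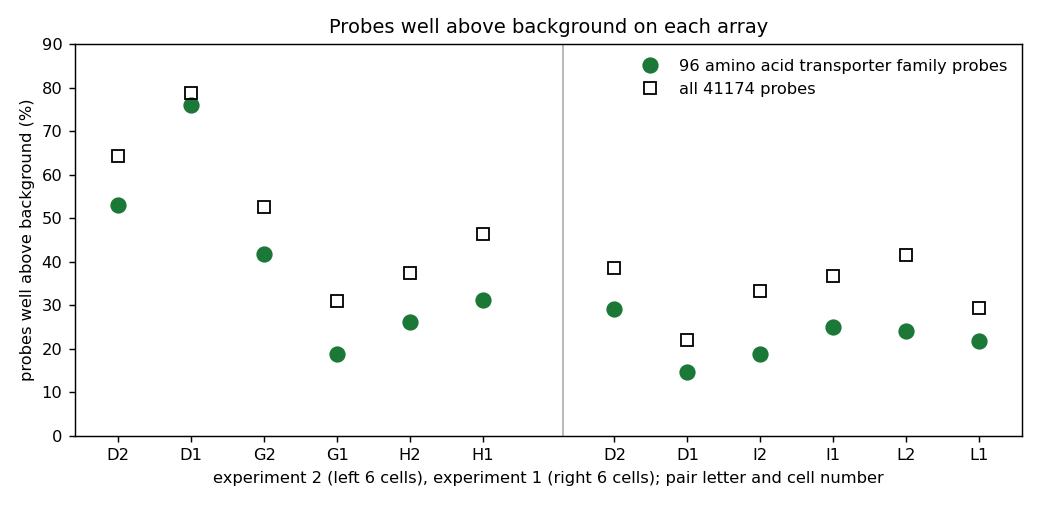
Share of probes well above background (y axis, percent) on each array (x axis; pair letter and cell number, experiment 2 left, experiment 1 right) for the 96 family probes (green dots) and all 41174 probes (open squares). The dots lie under the squares on every array, and both are highest in pair D of experiment 2.

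Levels are given as log2 of a probe's signal over the 75th percentile of its array, and signals under a common floor of -4.12 were raised to it. Such levels compare cells for 1 probe, and do not rank genes. Slc6a9 encodes GLYT1, the glycine carrier. Its level was 1.56 and 1.15 in cells D2 and D1, 1.27 and 1.78 in G2 and G1, and 2.65 and 2.01 in H2 and H1 of experiment 2. In experiment 1 it was 2.37 and 2.85 in cells D2 and D1, 3.04 and 2.28 in I2 and I1, and 2.55 and 3.01 in L2 and L1. The probe was thus over the 75th percentile in every cell, and the ranges of the experiments met only through cell 2 of pair H.

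Slc6a7, of class PROT, had 2 probes, both detected in every cell. Probe 1 read -0.94 and -1.59 in cells D2 and D1, -3.23 and -2.72 in G2 and G1, and -3.21 and -2.05 in H2 and H1 of experiment 2. It read -2.52 and -3.87 in cells D2 and D1, -3.05 and -3.79 in I2 and I1, and -3.78 and -2.05 in L2 and L1 of experiment 1. Probe 2 spanned -4.12 to -2.10 in experiment 2 and -4.12 to -0.20 in experiment 1. The probes placed the cells in different orders: pair L of experiment 1 was high on probe 2, at -1.37 and -0.20 in cells 2 and 1, and not set apart on probe 1.

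Slc6a6, the taurine carrier, lay at -0.09 and -1.42 in cells D2 and D1, -2.29 and -1.41 in G2 and G1, and -0.30 and -1.58 in H2 and H1 of experiment 2. It lay at -0.57 and -2.12 in cells D2 and D1, -1.11 and -1.46 in I2 and I1, and -1.28 and -0.73 in L2 and L1 of experiment 1. The 2 experiments covered the same range, and the cells of an embryo were 0.34 to 1.55 log2 units apart. The second Slc6a6 probe was detected on no array, so the detection of this gene rests on 1 probe.

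Slc1a1 encodes the glutamate and aspartate carrier EAAC1 of system X-AG. Probe 1 read -1.35 and -1.31 in cells D2 and D1, -1.99 and -1.92 in G2 and G1, and -2.94 and -1.87 in H2 and H1 of experiment 2. It read -0.15 and -2.29 in cells D2 and D1, -1.84 and -1.33 in I2 and I1, and -1.00 and -1.46 in L2 and L1 of experiment 1. Its cells of experiment 1 thus enclosed most of those of experiment 2. The other carriers of this system were found in fewer cells: Slc1a2 in 7, Slc1a3 in 6, Slc1a6 in 5 and Slc1a7 in 3.

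Slc1a5 encodes ASCT2, a sodium-dependent exchanger of small neutral amino acids and glutamine. It was at -2.27 and -2.95 in cells D2 and D1, -2.68 and -2.68 in G2 and G1, and -2.94 and -3.88 in H2 and H1 of experiment 2. It was at -1.99 and -3.61 in cells D2 and D1, -4.12 and -2.38 in I2 and I1, and -4.07 and -2.69 in L2 and L1 of experiment 1. Twins were up to 1.75 log2 units apart, and cell 2 was the higher twin in 3 of 6 embryos. Its relative Slc1a4 (ASCT1) was detected in 5 cells.

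Slc3a2 encodes the 4F2 heavy chain (CD98). Probe 1 read -0.38 and -0.68 in cells D2 and D1, -0.15 and 0.24 in G2 and G1, and 0.14 and -0.85 in H2 and H1 of experiment 2. It read 0.32 and 0.62 in cells D2 and D1, 0.94 and 0.85 in I2 and I1, and 0.74 and 1.27 in L2 and L1 of experiment 1. Every cell of experiment 2 lay below every cell of experiment 1 on this probe. The other heavy chain, Slc3a1, which pairs with the b0,+ light chain, was detected in 3 cells, all in experiment 2.

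The names that are not amino acid carriers complete the set. The nucleobase carrier Slc43a3 ranged over -2.50, -2.06 and -1.10 in experiment 2 (lowest, median and highest of 6 cells) and over -2.03, -1.01 and 0.15 in experiment 1. Slc7a6os ranged over -2.48, -0.72 and -0.31 in experiment 2 and over -1.62, -1.27 and -0.81 in experiment 1. The ranges overlapped for both.

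**Figure D3:**
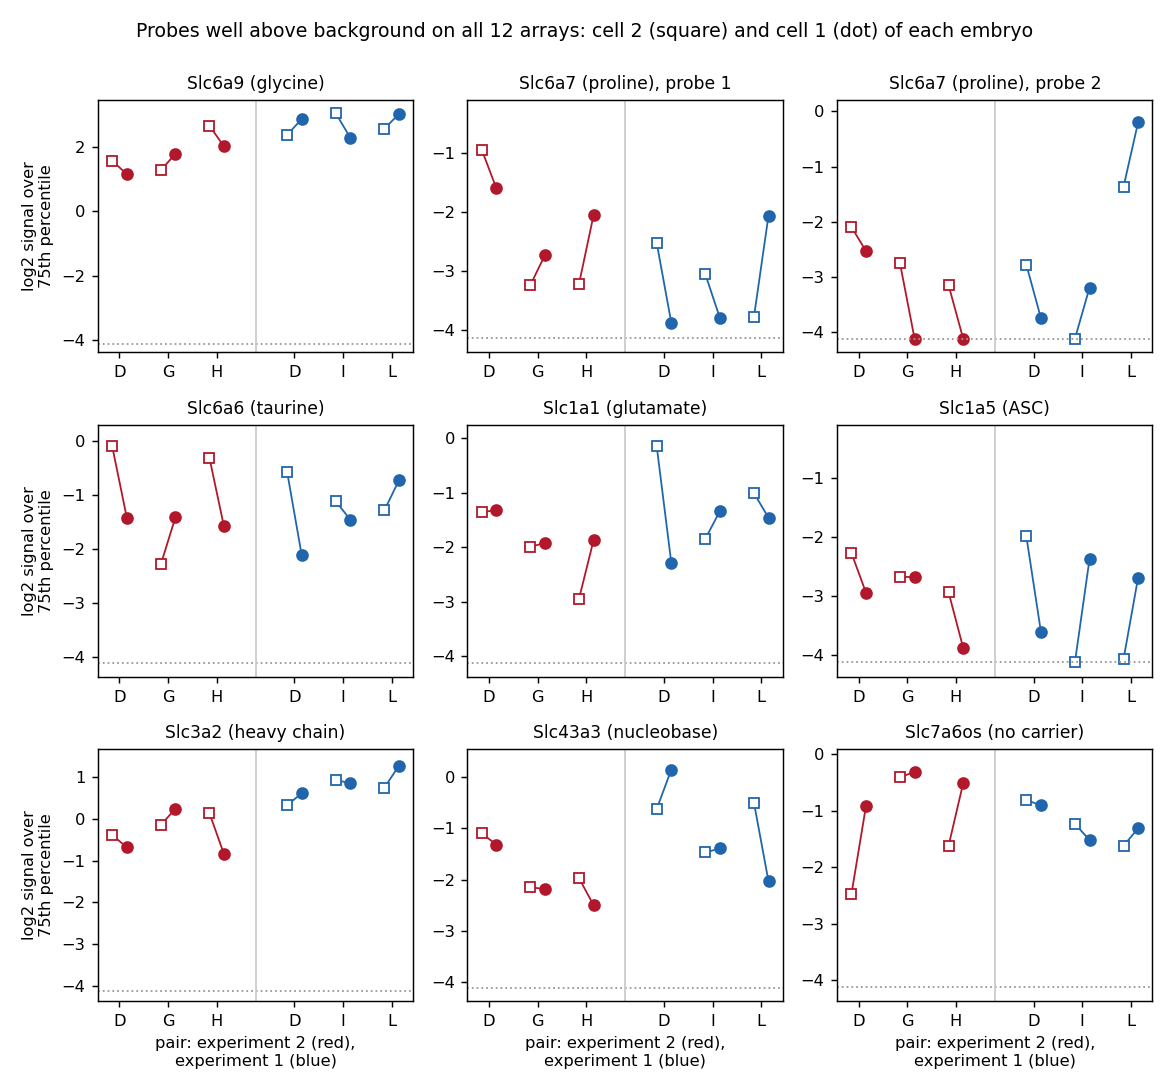
Level (y axis, log2 signal over the array's 75th percentile) of the 9 probes of 8 gene names detected on all 12 arrays, for each pair (x axis; experiment 2 in red, experiment 1 in blue). Open squares are cell 2 and dots cell 1, lines join twins, and the dotted line is the floor at -4.12; for Slc3a2 the red points all lie under the blue points.

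The light chains that Slc3a2 serves were found in part of the cells. For cationic amino acids, Slc7a2 (CAT-2, of system y+, which works without a heavy chain) was detected in 11 cells, the exception being cell 2 of pair I of experiment 1. It stood at -2.41 and -2.32 in cells 2 and 1 of pair D and -2.85 in cell 2 of pair G of experiment 2, at -2.58 and -3.62 in cells 2 and 1 of pair D and -2.64 in cell 2 of pair L of experiment 1, and at the floor elsewhere. Slc7a1 (CAT-1) was detected in no cell and Slc7a3 in 1. Slc7a7 (y+LAT1) was detected in 10 cells and is described below with the experiments, and Slc7a6 (y+LAT2) in 2.

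System L, which exchanges large neutral amino acids, was represented by Slc7a5 (LAT1) and Slc7a8 (LAT2), each detected in 8 cells. Slc7a5 was above the floor in 5 cells: -3.15 in cell 1 of pair D and -4.07 in cell 1 of pair G of experiment 2, and -3.06 and -3.30 in cells 2 and 1 of pair I and -3.46 in cell 1 of pair L of experiment 1. Slc7a8 was well above background on all 6 arrays of experiment 2 and on 2 of experiment 1, with signals at the common floor in 11 cells and barely over it in cell 1 of pair D of experiment 1, where it was not detected. The Slc43 members of the system, Slc43a1 and Slc43a2, were detected in 2 cells each. The cystine and glutamate exchanger xCT (Slc7a11) was detected in 8 cells by at least 1 of 4 probes, and its brightest probe read -2.88 and -2.71 in cells 2 and 1 of pair D and -3.52 in cell 2 of pair G of experiment 2 and the floor in all others. Of system asc, Slc7a10 was detected in 1 cell, at the floor, and Slc7a12 in none. Slc7a13 (5 cells), Slc7a14 (4), Slc7a4 (2) and Slc7a15 (2) are Slc7 members outside these systems. Slc7a13 read -3.95 and -3.82 in cells 2 and 1 of pair D of experiment 2, -3.66 in cell 1 of pair D and -3.73 in cell 2 of pair L of experiment 1, and the floor elsewhere.

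Among the sodium-coupled carriers of neutral amino acids, the B0 relatives were detected in 10 cells in all. Slc6a15 stood at -3.21 and -2.29 in cells 2 and 1 of pair G and -3.58 and -2.43 in pair H of experiment 2, at -3.37 in cell 2 of pair D of experiment 1, and at the floor in the other 7 cells. It was therefore high in embryos other than pair D of experiment 2, which had the highest detection. These values rest on 1 probe, and the second Slc6a15 probe was detected on no array. Slc6a17 was detected in 9 cells, Slc6a16 in 6, Slc6a18 in 4 and Slc6a19, the intestinal and renal B0 carrier itself, in 1. Class IMINO was read from the probe named Slc6a20 alone, which has the accession of Slc6a20b. That probe was detected in 6 cells. It stood at -2.61 in cell 1 of pair D of experiment 2, with the floor in the other cells of that experiment. In experiment 1 it stood at -3.92 in cell 2 of pair D and -2.68 in cell 1 of pair I, with the floor elsewhere. Slc6a20a, which the array lists under an older name, was detected in 7 cells and is not in the class. Which of them carries imino acids in these cells was not tested.

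Systems A and N, the sodium-coupled glutamine and alanine carriers of family Slc38, were sparse. Slc38a1 and Slc38a2 (SNAT1 and SNAT2) were detected in 6 and 5 cells and Slc38a4 in 1. The brightest Slc38a1 probe stood at -1.49 in cell 1 of pair D of experiment 1, the array with the lowest detection, and at the floor in the other 11 cells, and 2 of its 6 probes were detected nowhere. Slc38a3 and Slc38a5 (SN1 and SN2) were detected in 6 and 4 cells. Slc38a3 read -2.62 and -3.08 in cells 2 and 1 of pair D and -3.59 in cell 2 of pair G of experiment 2, and -4.08 in cell 2 of pair D and -2.71 in cell 2 of pair L of experiment 1.

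The proton-coupled carriers (PAT) were detected in 8 cells. Slc36a1 (PAT1, of lysosomes and the cell surface) was found in all 6 cells of experiment 2 and 2 of experiment 1. It read -2.46 and -2.25 in cells 2 and 1 of pair D and -3.04 in cell 2 of pair G of experiment 2, and -3.65 in cell 2 of pair D and -2.44 in cell 2 of pair L of experiment 1, with the floor elsewhere. Slc36a2 and Slc36a3 were detected in 4 cells each and Slc36a4 in 3.

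Carriers of related substrates made up the rest. The GABA and taurine carrier Slc6a13 (GAT2) was detected in 7 cells. Its brighter probe stood at -2.46 and -3.47 in cells 2 and 1 of pair D and -2.15 in cell 1 of pair H of experiment 2, and at -3.80 in cell 2 of pair L and -2.15 in cell 1 of pair I of experiment 1. In pair H of experiment 2 and pair I of experiment 1 the twin was at the floor. Its second probe was highest in the same cells of those pairs, at -2.83 and -2.68. Slc6a11 was detected in 3 cells and Slc6a12, placed in the class of GABA and betaine carriers, in 2. The creatine carrier Slc6a8 was detected in 6 cells and was above the floor in 1, cell 2 of pair D of experiment 1, at -2.96. Of the monoamine carriers, Slc6a4 (serotonin) was detected in 5 cells, at -3.27 and -2.90 in cells 2 and 1 of pair D and -3.88 in cell 2 of pair G of experiment 2 and otherwise at the floor, Slc6a3 (dopamine) in 1 and Slc6a2 (noradrenaline) in none.

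Names with no detected probe on any array were Slc6a14, Slc7a9, Slc7a1, Slc7a12, Slc6a5 (the neuronal glycine carrier GLYT2) and Slc6a2. Of these, 5 had 1 probe and Slc6a14 had 2, so what was not detectable is the signal of those probes. Of 26 names with several probes, 4 had a probe detected on all 12 arrays, and for only 1, Slc6a7, did every probe reach that. Family members that the array lists under older names were also measured, and these were chosen after their values were seen. Slc38a10 was detected in 10 cells, Slc6a20a in 7, Slc38a7 in 4, Slc38a11 in 3 and Slc38a8 in 2. Slc38a9, a lysosomal arginine sensor, was detected in 9 cells by 1 probe and in 5 by another. Cell 2 of pair L of experiment 1 was among the 5 and not among the 9.

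Most dim carriers were highest in pair D of experiment 2. Of the 24 family probes detected on at least 6 arrays, 15 were not detected on all 12. Of these, 13 were above the floor in a cell of experiment 2, and 9 of the 13 (69.2%) were highest in a cell of pair D, against 74.5% of 10157 such probes of the whole array. In experiment 1, 14 were above the floor and 5 (35.7%) were highest in cell 2 of pair L, which had the highest detection of that experiment, against 52.7% of 9743. The part of background signal in these levels was not tested. Slc6a15, Slc6a13, Slc7a7 and probe 2 of Slc1a1 peaked elsewhere in both experiments.

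Few carriers passed the test between experiments. Of 24 tested probes of 21 names, 2 passed limma's test at an adjusted p under 0.05, which 8.11% of all 16712 tested probes did. Experiment 2 was higher for 1 (background 3.96%) and lower for 1 (background 4.15%). Over all tested probes this is 662 higher and 694 lower, against 22 higher and 150 lower when arrays were scaled to the 75th percentile of all probes and 98 higher and 282 lower with a floor per array. The median difference, experiment 2 minus experiment 1, was 0.13 log2 units over the 24 probes and 0.19 over all tested probes. A count of 2 in 24 is close to the background share.

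Slc3a2, the heavy chain, was lower in experiment 2. Its level on probe 1 averaged -0.28 ± 0.44 in experiment 2 and 0.79 ± 0.32 in experiment 1 (SD, n = 6 cells each), a difference of -1.07 ± 0.28 (SE) log2 units or 2.10-fold, with a limma adjusted p of 0.0342. Probe 2 had the opposite sign, 0.64 ± 0.43, at an adjusted p of 0.466 in limma. On that probe the highest cells were -2.40 and -2.14 in cells 2 and 1 of pair D of experiment 2, and 5 of 6 cells of experiment 1 were at the floor. The call on probe 1 was lost in 14 of 24 alternatives, among them the deposited values, at limma adjusted p of 0.0143 to 0.624 over all of them, and without both cells of pair D of experiment 2 it was 0.0536.

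Slc1a1, the acidic amino acid carrier, was higher in experiment 2 on probe 2 only. That probe read -2.72 and -1.67 in cells D2 and D1, -0.87 and -2.38 in G2 and G1, and -2.67 and -2.37 in H2 and H1 of experiment 2. In experiment 1 it was above the floor in 2 cells, -4.02 and -3.64 in cells 2 and 1 of pair I. The groups did not overlap, and the difference was 1.91 ± 0.38 log2 units (SE; limma adjusted p 0.00948). The probe was detected on 3 arrays of experiment 1, so the size of the difference depends on the floor, and it was 1.41 to 2.74 over the alternatives. Probe 1, detected in every cell, differed by -0.55 ± 0.48 (adjusted p 0.567 in limma). The 2 called names thus each rest on 1 of 2 probes whose partner had the other sign.

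The remaining carriers did not pass. Slc6a9 averaged 1.74 ± 0.55 in experiment 2 and 2.68 ± 0.33 in experiment 1 (SD, n = 6), a difference of -0.95 ± 0.31 with a 95% interval of -1.63 to -0.27 and a limma adjusted p of 0.0935. For Slc6a6 the difference was 0.03 with an interval of -1.08 to 1.14, and for Slc1a5 it was 0.24 with an interval of -0.97 to 1.45, so both intervals hold a change of 2-fold upwards. Slc6a7 differed by 0.89 ± 0.57 on probe 1 and by -0.56 ± 0.73 on probe 2. Slc43a3 was at -0.89 ± 0.44 and Slc7a6os at 0.19 ± 0.43, with adjusted p of 0.307 and 0.825 in limma.

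**Figure D4:**
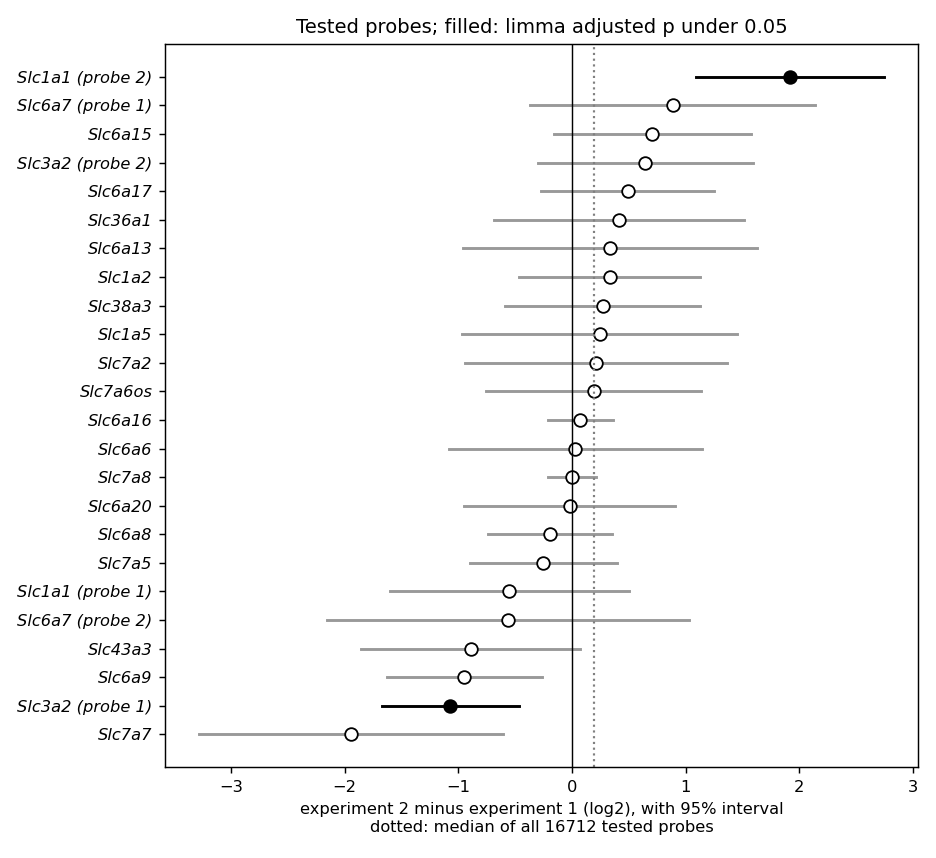
Difference between experiments (x axis, experiment 2 minus experiment 1, log2, with its 95% interval) for the 24 tested family probes (y axis; probe 1 is the brighter of 2). Filled points passed limma's test: Slc1a1 probe 2 at 1.91 and Slc3a2 probe 1 at -1.07; the dotted line is the median of all tested probes, 0.19.

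Slc7a7, the light chain of system y+L that is known in gut, kidney and macrophages, had the lowest difference. It was at the floor in 4 cells of experiment 2 and at -3.67 and -3.00 in cell 2 of pairs D and H. In experiment 1 it was at -3.21 and -1.68 in cells D2 and D1, -2.61 and -1.18 in I2 and I1, and -2.53 and -0.28 in L2 and L1. The groups overlapped in 1 cell, and the difference of -1.94 ± 0.61 log2 units did not pass (limma adjusted p 0.0791). It passed with normexp, on embryo means and without cell 2 of pair H of experiment 2. Within experiment 1 cell 1 was the higher twin in all 3 embryos.

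Several transcripts of other cell types also had lower levels in experiment 2. Lyz2, the lysozyme of macrophages, was at the floor in 5 cells of experiment 2 and at -3.20 in cell 2 of pair G. It was at 2.83 and 2.07 in cells D2 and D1, 3.26 and 4.33 in I2 and I1, and 4.83 and 7.77 in L2 and L1 of experiment 1 (difference -8.15 ± 0.89, limma adjusted p 0.000352). It was detected on 4 arrays of experiment 2, and the size of this difference depends on the floor. Cell 1 of pair L, the highest cell for Slc7a7, was also the highest for Lyz2 and for the macrophage genes Adgre1 (1.79), Fcer1g (1.40), Tyrobp (1.50) and Csf1r (-0.47), which were chosen after their values were seen. In experiment 2 Adgre1, Fcer1g and Csf1r lay at the floor in all 6 cells and Tyrobp in 3. Other cells had another order. In pair D of experiment 1 Slc7a7 was higher in cell 1, and Lyz2, Adgre1, Fcer1g and Tyrobp were higher in cell 2. In experiment 2 Slc7a7 was over the floor in cell 2 of pairs D and H, and Lyz2 in cell 2 of pair G. Among the cells of experiment 1, Krt18 was lowest in pair L. Of the 8 macrophage and leukocyte genes, 5 were tested and Lyz2 alone passed; Ptprc was at the floor in all 6 cells of experiment 1. Of the stroma and smooth muscle list 7 of 8 tested genes were lower in experiment 2, and of the oviduct list 4 of 8. The difference was -4.74 ± 0.45 for Vim and -5.57 ± 1.00 for Krt18 (limma adjusted p 0.000156 and 0.00618). The part of such RNA in the levels of Slc7a7, Slc3a2 and the other carriers was not tested.

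**Figure D5:**
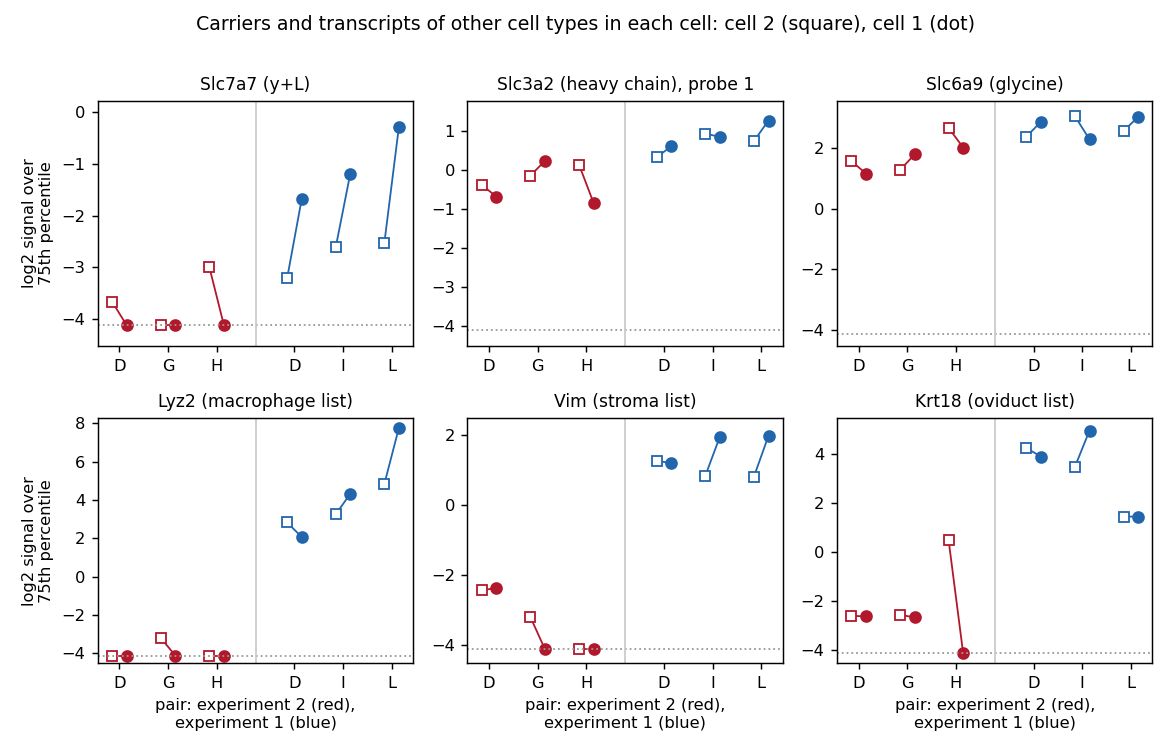
Level (y axis, log2 signal over the array's 75th percentile) of 3 carriers and of 3 transcripts from the lists of other cell types in each cell, by pair (x axis; experiment 2 in red, experiment 1 in blue; open squares cell 2, dots cell 1; dotted line, floor). Slc7a7 and Lyz2 are both highest in cell 1 of pair L of experiment 1, at -0.28 and 7.77.

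The next comparison was between embryos of an experiment. In either experiment pair D lay alone on its slide, so its differences from the other embryos cannot be told apart from slide. No family probe passed limma's F test over the embryo contrasts, which 1.41% of all tested probes passed, and 4 of 24 had an unadjusted p under 0.05 (16.7%, against 29.8% of all tested probes). The lowest was Slc6a17, known as a carrier of neutral amino acids into synaptic vesicles, at an unadjusted p of 0.00366 and an adjusted p of 0.0724. It read -2.58 and -2.44 in cells 2 and 1 of pair D, -3.52 in cell 2 of pair G of experiment 2, -3.81 in cell 2 of pair D and -3.53 in cell 2 of pair L of experiment 1, and the floor elsewhere. All 3 of its probes were above the floor in both cells of pair D of experiment 2. In these cells, 2 and 1, 64.3 and 78.7% of all probes were detected.

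Probe 2 of Slc6a7, high in pair L, came next (limma adjusted p 0.102). Probe 2 of Slc3a2 had an adjusted p of 0.114 and Slc1a2 one of 0.157, and both were highest in pair D of experiment 2. Among probes detected in every cell, the glycine, taurine, ASC and heavy chain carriers had adjusted p of 0.360 for Slc6a9, 0.698 for Slc6a6, 0.831 for Slc1a5 and 0.496 for Slc3a2 in limma. Within the slides that held 2 embryos each, pairs G and H of experiment 2 and pairs I and L of experiment 1, no family probe passed either. Of all 16712 tested probes, only 14 passed over both slides and 0 on either slide alone. With 2 cells for each embryo, a p that misses the threshold does not show that embryos were alike.

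Twins were compared last. No family probe differed between cell 2 and cell 1 in limma, at an adjusted or an unadjusted p under 0.05; over the whole array 0 of 16712 passed (a background of 0%) and 738 had an unadjusted p under 0.05. The lowest p was that of Slc7a2, with cell 2 minus cell 1 at 0.62 ± 0.27 (p 0.0591, adjusted 0.674 in limma). For Slc6a9 the difference was 0.06 with a 95% interval of -0.50 to 0.62, and for Slc3a2 probe 1 it was 0.03 with an interval of -0.49 to 0.55. For Slc6a6 it was 0.51 with an interval of -0.41 to 1.43, cell 2 being higher in 4 of 6 embryos. A twin difference that depended on the experiment was seen for no family probe after adjustment (lowest limma adjusted p 0.913), and 1, Slc7a7, had an unadjusted p under 0.05.

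Twins resembled each other about as much in these genes as in all genes. The root-mean-square difference over the 24 tested probes was 0.81 log2 units between twins (SD 0.13, n = 6 embryos). Between cells of different embryos of an experiment it was 0.94 (SD 0.20, 24 cell pairs, which share cells and are not independent). Over all tested probes these values were 0.79 (SD 0.14) and 0.96 (SD 0.16). Pairs G and D of experiment 2 had the closest twins in the family probes, at 0.69 and 0.70, and pair L of experiment 1 the most distant, at 1.02. Among probes detected in every cell, the twin difference of Slc3a2 probe 1 was 0.51 and of Slc6a9 0.56 (root mean square over 6 embryos), against 1.22 for Slc1a5 and 1.08 for Slc6a6.

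Carriers of other families and genes that act on amino acid supply were read from separate lists. Of 20 other amino acid carriers on the array, 3 were detected in all 12 cells: Slc16a10, an exporter of aromatic amino acids, and the mitochondrial carriers Slc25a13 (aspartate and glutamate) and Slc25a38 (glycine). None of the 10 tested passed between experiments in limma. Of 27 genes of amino acid sensing by mTORC1, 16 were detected in all 12 cells, among them Depdc5, Flcn, Fnip1 and Lamtor1, and 2 of 22 tested genes passed between experiments, near the 8.11% of all tested probes. Rheb, the GTPase that activates mTORC1, was higher in experiment 2 by 1.45 ± 0.28, and Tsc2, which switches Rheb off, was lower, at a difference of -2.12 ± 0.46 (limma adjusted p 0.00909 and 0.0154).

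Of 15 genes of the response to amino acid deprivation, 4 were detected in all cells and 3 of 14 tested passed, beside 8.11% of all tested probes. Cebpg was higher in experiment 2 by 1.36 ± 0.31 and Eif2s1, the initiation factor that stress kinases phosphorylate, by 1.12 ± 0.30, while Cebpb differed by -3.99 ± 0.48 (limma adjusted p 0.0199, 0.0426 and 0.000676). Of 6 cells, 5 were at the floor for Cebpb in experiment 2 and 5 for Cebpg in experiment 1, so the sizes of both differences depend on the floor. Cebpb is also well known in macrophages, and its highest cell, cell 1 of pair L of experiment 1 at 1.49, was the highest cell for Lyz2. Other cells of experiment 1 had another order. In cell 1 of pair D and cell 2 of pair L, Cebpb was at -0.10 and -0.60, and Lyz2 at 2.07 and 4.83. The part of RNA of other cell types in the level of Cebpb was not tested. Of 10 genes whose products bind or regulate carriers, Wnk1 was detected in all cells and none of 6 tested passed. In none of these lists did a gene pass between embryos.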

How the data were processed

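Per the file headers, the deposited files of the arrays are output of Agilent Feature Extraction (version 9.1.3.1), with an intensity and flags for every spot. The authors' value table was found to be the processed intensity over 1 constant per array, linear and with its own floor; its column medians were 0.01 to 0.142. The other deposited columns used (unit other) are the scanner's flags and names, per the file headers. Any genome build is not given in the sources used here.

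The channel holding the RNA was used. Outlier spots were left out and spots of a probe averaged. Processed signals were scaled to the 75th percentile of each array, taken over 5858 probes detected on every array. A common floor of 0.0574, where the least sensitive array stops detecting, was applied before log2. Probes detected on 6 or more arrays entered limma 3.58.1 in R 4.3.3, in all 16712, with Benjamini-Hochberg adjustment over all of them and a threshold of 0.05. Experiment was fitted with embryo as a random block (consensus correlation 0.346), embryos with a moderated F test over contrasts within experiments, and cell number with embryo as a fixed block. Calls were tested on simulated data without a floor, with 100 probes changed 2-fold and 100 changed 4-fold. The test between experiments recovered 19 and 56 of them, that between embryos 0 and 22, and that between cells 34 and 73. False calls were 10, 2 and 5 among 16412 unchanged probes. Most 2-fold changes would therefore be missed. The number of arrays and their signal over background limit the precision, and since twins share an embryo, p-values between embryos measure the spread between twins.

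The members, the transport classes and the gene lists were chosen with earlier results of these data known. Any member could be named by its class. The values of 1 member, which is in the counts, are not reported here. Values in every cell are given for members detected on all 12 arrays, members passing a test and the member with the highest mean of each class detected on 1 to 11 arrays. A gene with several probes is represented by the one with the highest mean, probe 1. From other lists, at most 4 genes passing and at most 4 detected on all arrays were named. Of 41174 probes, 22944 were named through their accession and 11765 by the file alone. Figures used Python 3 and matplotlib.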

Additional observations from a re-analysis of the deposited data

Results flagged for a closer look

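In experiment 1 the Cy3 channel, which the comparisons do not use, was scanned as well. There 1 family probe, that of the heavy chain Slc3a1, was well above background in cell 2 of pair D, and none was in the other 5 cells, against 28 family probes well above background in Cy5 in the same cell of pair D. Over the whole array 68 to 160 spots were well above background in Cy3 of these arrays, and no control sample exists for this channel.

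For the 24 tested probes, the 6 cells of either experiment were searched for a lone cell whose gap to the next cell was over 0.625 of the group's range, which chance gives in about 1 in 20 groups. Such a cell was found in 13 of 48 groups, in each case the highest cell, and in none of the 24 groups in which all 6 cells were well above background. In 6 of the 13 the other 5 cells were at the floor, so that the gap was the whole range (a ratio of 1). These were Slc6a20 and Slc6a16 in cell 1 of pair D of experiment 2, at -2.61 and -3.68, Slc6a8 and Slc6a15 in cell 2 of pair D of experiment 1, at -2.96 and -3.37, probe 2 of Slc3a2 in cell 2 of pair L of experiment 1, at -3.17, and Slc7a8 in cell 1 of pair D of experiment 1, barely over the floor. In the other 7, 4 of the 6 cells were at the floor. Cell 2 of pair L of experiment 1 stood apart for Slc38a3 (ratio 0.972), Slc1a2 (0.786) and Slc36a1 (0.719). Cell 1 of pair I of experiment 1 stood apart for Slc6a20 (0.862), Slc6a13 (0.836) and probe 2 of Slc1a1 (0.792), and cell 1 of pair D of experiment 2 for Slc7a5 (0.946). Values at the floor have no order, and these gaps depend on where it lies.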

How the results depend on the processing

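The count of family probes passing between experiments, 2, was 0 with the 75th percentile of all probes and with a floor per array, 1 with a lower common floor, the deposited values, only probes well above background on all 12 arrays, or the slide as a random block, and 2 with quantile normalization or no filter, on the same probes. It was also 2 on embryo means, where Slc7a7 passed (limma adjusted p 0.0359) and Slc3a2 did not, and without both cells of pair D of experiment 2 (an alternative chosen after seeing the data), where Slc6a15 passed (0.0493) and Slc3a2 did not. Over all tested probes 172 to 2033 passed between experiments in the alternatives, against 1356, and 0 to 4362 between embryos, against 235. With normexp it was 3, Slc7a7 being added at a limma adjusted p of 0.0203. Leaving out 1 cell gave 1 to 4: 1 without cell 2 of pair G of experiment 2, cell 1 of pair D, either cell of pair I or either cell of pair L of experiment 1, and 4 without cell 2 of pair H of experiment 2, where Slc6a9 and Slc7a7 were added. Probe 2 of Slc1a1 kept its call in 21 of 23 alternatives and Slc3a2 in 10 of 24, and no difference of a called probe changed sign. Quantile normalization moved the median difference of all tested probes to 0.01, against 0.19. Between embryos the count, 0, was 1 with quantile normalization, 1 with the 75th percentile of all probes, 6 with a floor per array and 4 of 96 with no filter. Of all tested probes 469, 335 and 4362 of 16712, and 2768 of 41174 with no filter, passed in these runs. The family count was 0 to 6 with 1 cell left out: 6 and 2 without cells 1 and 2 of pair L of experiment 1 and 1 and 2 without cells 1 and 2 of pair G of experiment 2. Over all tested probes 3884, 1836, 1143 and 1465 passed there. Slc6a17 passed in all of these alternatives except the 75th percentile of all probes and no filter, at a limma adjusted p of 0.00382 with quantile normalization. Between cell 2 and cell 1 the count was 0 in every alternative run. The cause of these changes was not tested. The number of names detected on all 12 arrays, 8, was 16 with the scanner's looser flag (positive and significant signal), which added Slc7a2, Slc7a5, Slc7a8, Slc36a1, Slc38a3, Slc1a2, Slc6a17 and Slc6a18, and 5 where every probe of a gene had to be detected. It was 8 to 9 with 1 cell left out, which cannot lower it. The twin distance of 0.81 was 0.73 to 0.90 in the alternatives. Cell numbers did not pair the embryos: twin differences correlated by -0.0793 to 0.259 between embryos, over 0.1 for 3 of 15 pairs of embryos. With the cell number as a replicate block, 1 family probe passed between experiments and 0 between embryos. Detection is limited by signal over background, and a family probe that is not detected may still have its target in the cell.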
